A study of Mus musculus with 36 samples.

Results

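The myosin isoforms that tell muscle fiber types apart were followed through RNA sequencing of mouse tibiae. The members are 10 genes, taken by their symbols from the 56246 genes of the deposited table. They are 6 heavy chains (Myh4, Myh1, Myh2, Myh7, Myh3 and Myh8) and 4 light chains (Mylpf, Myl1, Myl2 and Myl3). All 10 were found, and 8 of them passed the filter on low values used for the tests. Myh3 and Myh8 did not pass it and are given by their levels, their shares and a fit without that filter.

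Each library came from the tibia of 1 mouse aged 6 months, freed of marrow and epiphyses, and each group held 6 males and 6 females. The WT group was 12 untreated wild-type mice. The saline group was 12 mice labelled LMNAG608G/G608G, which carried a human LMNA transgene with the G608G variant of Hutchinson-Gilford progeria syndrome on a bacterial artificial chromosome and received saline by retro-orbital injection on postnatal day 14. The ABE group was 12 mice with the same label and transgene, injected the same way on the same day with an adenine base editor split over a pair of AAV9 vectors. The human transgene itself was not analysed here. The WT mice received no injection, so genotype and injection cannot be told apart in comparisons with WT.

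Myosin is the motor of the muscle sarcomere. A pair of heavy chains forms each motor, and each heavy chain carries an essential and a regulatory light chain on its neck. The heavy chain gene that a fiber uses sets how fast it contracts, and fibers are named after it: type I (Myh7) is slow and oxidative, type IIA (Myh2) is fast and oxidative, and types IIX (Myh1) and IIB (Myh4) are fast and increasingly glycolytic. Myh3 and Myh8 are the embryonic and perinatal heavy chains, used during development and again in regenerating fibers. Muscles around the mouse tibia are mostly fast, while bone cells make none of these proteins in quantity, so in bone samples their sum is commonly read as the amount of adhering muscle and their proportions as the kind of fiber. In bulk samples, fewer cells of a type and less RNA per cell cannot be told apart.

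The fast and developmental heavy chain genes lie in a row on chromosome 11 of GRCm38 in the order Myh3, Myh2, Myh1, Myh4 and Myh8, all on the plus strand. Myh3 spans chr11:67078300-67102291, Myh2 chr11:67171027-67197517, Myh1 chr11:67200052-67224575, Myh4 chr11:67238029-67260446 and Myh8 chr11:67277124-67308634. Myh7 stands alone on the minus strand at chr14:54970684-54994626. The light chain genes are scattered: Mylpf at chr7:127208890-127214298 and Myl1 at chr1:66924295-66945404 on the minus strand serve fast fibers, Myl2 at chr5:122100951-122113472 and Myl3 at chr9:110741861-110769798 serve slow fibers and the heart ventricle.

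The promoters of 4 heavy chain genes are shown, those after which the fiber types above are named. Whether these sequences bear on the levels was not tested. Each is the 250 bases before the RefSeq transcription start (GRCm38.p6), 5′ to 3′ on the strand of the gene. Capitals mark words that a search found to be shared exactly by 3 of the 5 promoters of the chromosome 11 row.
Myh4 (chr11:67237562-67237811, plus): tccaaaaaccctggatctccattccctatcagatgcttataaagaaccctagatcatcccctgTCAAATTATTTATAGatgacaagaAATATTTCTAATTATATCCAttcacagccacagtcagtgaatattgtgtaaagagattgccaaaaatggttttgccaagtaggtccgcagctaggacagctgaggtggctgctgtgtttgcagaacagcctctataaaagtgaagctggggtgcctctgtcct
Myh1 (chr11:67199852-67200101, plus): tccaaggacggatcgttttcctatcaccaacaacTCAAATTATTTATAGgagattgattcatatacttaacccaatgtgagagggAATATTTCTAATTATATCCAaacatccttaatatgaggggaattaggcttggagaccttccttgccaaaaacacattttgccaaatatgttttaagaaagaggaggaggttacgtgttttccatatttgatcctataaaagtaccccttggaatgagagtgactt
Myh2 (chr11:67170777-67171026, plus): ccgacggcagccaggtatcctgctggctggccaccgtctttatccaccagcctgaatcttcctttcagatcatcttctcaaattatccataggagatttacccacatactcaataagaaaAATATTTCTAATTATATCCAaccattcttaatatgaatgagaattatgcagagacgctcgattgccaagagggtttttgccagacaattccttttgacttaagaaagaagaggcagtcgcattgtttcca
Myh7 (chr14:54994550-54994799, minus, the downstream of 2 RefSeq starts): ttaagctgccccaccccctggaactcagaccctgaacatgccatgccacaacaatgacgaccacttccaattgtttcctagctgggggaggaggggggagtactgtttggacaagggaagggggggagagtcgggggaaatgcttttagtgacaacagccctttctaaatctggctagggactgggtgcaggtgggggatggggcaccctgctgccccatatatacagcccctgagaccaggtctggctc

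The longer word, of 20 bases, begins 163 bases before the start of Myh4, 165 before that of Myh1 and 130 before that of Myh2. It was present in 3 of 32851 RefSeq promoters searched on both strands with the same window, which is 0.00913%. The shorter word, of 15 bases, begins 187 bases before the start in Myh4, 216 in Myh1 and 104 in Myh8, and the same number of promoters held it. It contains a match to the MEF2 motif, the binding sequence of a family of muscle transcription factors, and this match overlaps one to TATAAA. Myh4, Myh1 and Myh8 each had 1 MEF2 match, against 2.92% of all promoters with any, and Myh2, Myh3 and Myh7 had none. The E-box CANNTG, bound by the MyoD family, was matched at 2 places in Myh4, 2 in Myh7, 1 in Myh3 and 1 in Myh8 and at none in Myh1 and Myh2, while 66.2% of all promoters held it. These matches are letters in a window and not measured binding.

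The libraries held 48064068 to 116206662 reads on genes. Levels are TPM (transcript abundance corrected for gene length and for the library total) divided by a median ratio factor, called scaled TPM below. The factors ranged from 0.606 to 1.56 apart from ABE replicate 1, which stood apart at 0.217: its summed heavy chains of 1995 scaled TPM were the highest of all libraries. Without that library 1 call on the members, of Myl1 in ABE against saline, was lost. The titles of 3 libraries (saline replicate 9 and ABE replicates 2 and 11) contain the letters WT although their genotype label is LMNAG608G/G608G. The results that changed without these 3 libraries, a check chosen after the data were seen, are named below. The mouse number series of the WT group also differs from that of the others in the titles, and any batch that this marks cannot be told apart from genotype. Nothing in the labels gives a day of dissection or extraction.

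Myh4, the IIB heavy chain, had the highest level of the heavy chains. It lay between 21.9 and 331 scaled TPM in WT (median 124), between 32.1 and 801 in saline (median 189) and between 92.0 and 943 in ABE (median 643). Of the ABE libraries 10 lay above every WT library, yet the groups overlapped in all comparisons. Myh1, the IIX heavy chain, lay between 8.72 and 153 scaled TPM in WT (median 48.8), between 18.01 and 400.3 in saline (median 162) and between 75.7 and 759 in ABE (median 344). All 12 ABE libraries exceeded the WT median of Myh1, as did 10 saline libraries. Myh2, the IIA heavy chain, lay between 1.07 and 60.5 scaled TPM in WT (median 16.2), between 4.29 and 49.4 in saline (median 21.4) and between 28.6 and 290.2 in ABE (median 84.4). Here the saline group stayed within the WT range, while 9 ABE libraries lay above every saline library.

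Myh7, the slow heavy chain, showed another order. It lay between 0.00518 and 9.63 scaled TPM in WT (median 2.23), between 0.0127 and 2.32 in saline (median 0.249) and between 0.930 and 34.6 in ABE (median 4.09). In 11 of 12 saline libraries its level was below the WT median, and all 12 ABE libraries were above the saline median. The spread over single libraries was widest for this gene, from 14 reads in the lowest WT library to 65358 in the highest ABE library.

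The developmental heavy chains were near the limit of detection. Myh3 lay between 0.00479 and 0.228 scaled TPM in WT, between 0.0138 and 0.397 in saline and between 0.126 and 1.16 in ABE. Its medians were 0.0410, 0.136 and 0.307 scaled TPM, and it rested on a median of 68 reads in WT and 485 in ABE. Myh8 lay between 0.000537 and 0.0474 scaled TPM in WT, between 0.0169 and 0.130 in saline and between 0.0316 and 0.263 in ABE. All 12 saline and all 12 ABE libraries lay above the WT median of 0.0152 scaled TPM for Myh8. The medians of both genes were far below those of the fast heavy chains in every group, while the saline range of Myh3 overlapped that of Myh7.

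The fast light chains followed the fast heavy chains. Mylpf, the fast regulatory light chain, lay between 12.2 and 168 scaled TPM in WT (median 60.1), between 21.1 and 547 in saline (median 161) and between 57.0 and 728 in ABE (median 406). Myl1, the fast essential light chain, lay between 7.97 and 116 scaled TPM in WT (median 38.7), between 14.3 and 369 in saline (median 90.2) and between 38.4 and 470.5 in ABE (median 268). In both genes 11 saline libraries exceeded the WT median.

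The slow light chains resembled Myh7. Myl2, the slow regulatory light chain, lay between 0.104 and 6.89 scaled TPM in WT (median 2.07), between 0.142 and 3.36 in saline (median 1.80) and between 1.59 and 21.9 in ABE (median 6.24). Myl3, the slow essential light chain, lay between 0.0765 and 5.44 scaled TPM in WT (median 1.78), between 0.167 and 2.28 in saline (median 0.497) and between 0.524 and 22.1 in ABE (median 3.47). Only 1 saline library exceeded the WT median of Myl3, whereas all 12 ABE libraries exceeded the saline median.

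**Figure D1:**
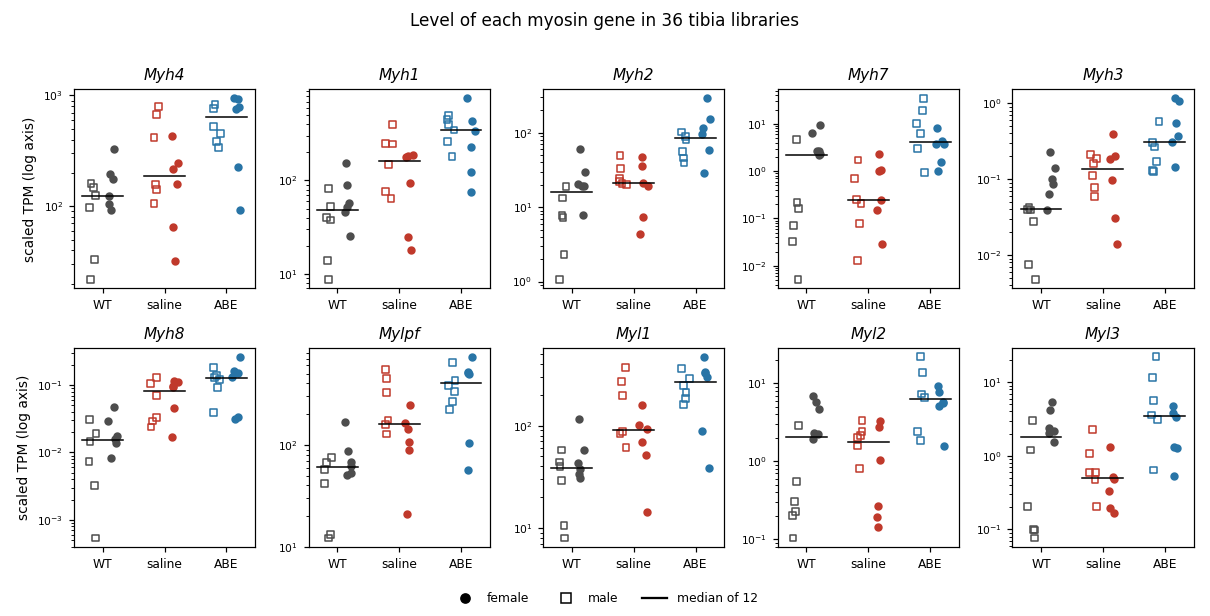
Each panel plots 1 myosin gene as scaled TPM on a log axis for the 12 libraries of each group, with filled circles for females, open squares for males and a bar at the median. Fast heavy and light chains step up from WT through saline to ABE, with medians of 124, 189 and 643 scaled TPM for Myh4, while Myh7 and Myl3 are lowest in saline.

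Saline against WT compared injected transgenic mice with wild-type mice that were not injected. Of the 8 members tested, 3 were higher and none lower, beside 52.5% of all 16123 genes called in either direction (27.5% higher and 24.9% lower). Mylpf rose by 1.65 ± 0.45 on the log2 scale (estimate and SE, adjusted p = 0.00289), Myl1 by 1.47 ± 0.44 (adjusted p = 0.00558) and Myh1 by 1.39 ± 0.46 (adjusted p = 0.0122). These are values of limma on log2(scaled TPM + 0.5) with sex as a covariate and adjustment over all genes. Myh4 at 0.87 ± 0.47 and Myh2 at 0.86 ± 0.45 did not pass. The slow chains had values below 0 that did not pass either: Myh7 at -0.95 ± 0.52 (adjusted p = 0.125), Myl3 at -0.72 ± 0.44 (adjusted p = 0.176) and Myl2 at -0.13 ± 0.45. Weighting libraries by their residual spread (array weights) brought Myh4 and Myh2 past the threshold, for 5 members beside 64.2% of all genes, and neutrophil, B cell and erythroid marker levels as covariates ended the call of Myh1 (adjusted p = 0.171). Leaving out saline replicate 4 also brought Myh4 and Myh2 past the threshold, and leaving out WT replicate 6 did so for Myh2, with adjusted p-values down to 0.0336 for Myh4 and 0.0305 for Myh2.

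ABE against WT gave the highest share of called genes, with 70.1% of all genes (34.6% higher and 35.6% lower). All 8 members tested were higher in ABE. Among the fast chains, Myh1 had a log2 fold change of 2.74 ± 0.46 (adjusted p = 4.25e-06), Myh2 of 2.72 ± 0.45 (adjusted p = 2.83e-06), Mylpf of 2.63 ± 0.45, Myl1 of 2.61 ± 0.44 and Myh4 of 2.17 ± 0.47. Among the slow chains, Myl2 had 1.68 ± 0.45 (adjusted p = 0.00125), Myh7 had 1.52 ± 0.52 (adjusted p = 0.0104) and Myl3 had 1.09 ± 0.44 (adjusted p = 0.0294). The pseudocount of 0.5 is of the size of many slow chain levels and holds their fold changes down: limma-voom on the recovered reads, without that pseudocount, gave 2.78 for Myh7, 2.28 for Myl2 and 1.72 for Myl3, beside 2.16 for Myh4 and 2.74 for Myh1. No order of fast and slow chains is therefore read from these values. The call of Myl3 was lost without any 1 of 6 libraries (WT replicates 1, 7, 8 and 11, ABE replicates 9 and 11), with adjusted p-values up to 0.0696. With those blood cell covariates 5 members passed, beside 52.2% of all genes, and all 5 were fast chains. The slow chains that did not pass there were at 1.36 for Myh7, 1.20 for Myl2 and 0.98 for Myl3. On TPM as deposited Myh7 (adjusted p = 0.0551) and Myl3 (adjusted p = 0.133) were lost, and Myl3 also with TPM rescaled to genes over 300 bp (adjusted p = 0.0599) and in a fit of the 2 groups compared (adjusted p = 0.0626).

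ABE against saline compared mice of 1 genotype label. No group received the vectors without the editor, so vector exposure and editing cannot be told apart here. Of the 8 members 7 were higher in ABE, beside 48.1% of all genes called (22.9% higher and 25.2% lower). Myh7 had the greatest log2 fold change of the members, 2.47 ± 0.52 (adjusted p = 8.97e-04), a value that the pseudocount also holds down, since limma-voom gave 4.30 (adjusted p = 0.00156). It was followed by Myh2 with 1.87 ± 0.45 (adjusted p = 0.00191), Myl2 with 1.80 ± 0.45 and Myl3 with 1.80 ± 0.44. Myh1 had 1.35 ± 0.46, Myh4 passed with a 95% interval of 0.35 to 2.25 (adjusted p = 0.0226) and Myl1 had 1.13 ± 0.44 (adjusted p = 0.0334), and Mylpf did not pass at 0.98 ± 0.45 (adjusted p = 0.0744). The call of Myl1 was lost without any 1 of 7 libraries (ABE replicates 1, 4, 5 and 7, saline replicates 3, 4 and 9; adjusted p up to 0.0773) and that of Myh4 without saline replicate 4 (adjusted p = 0.0528). Mylpf passed without ABE replicate 2 or 3 or saline replicate 11 or 12, and without the 3 libraries with WT in their titles (adjusted p = 0.0386). On TPM as deposited 4 members passed, with Myh1, Myh4 and Myl1 lost, beside 44.2% of all genes, and 1 member, Myh7, passed with the blood cell covariates, beside 8.05%.

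A fit without the filter on low values called 30.4% of 43628 genes in saline against WT, 44.2% in ABE against WT and 23.4% in ABE against saline. In it Myh8 was higher in saline than in WT (0.14 ± 0.045 on the log2 scale, adjusted p = 0.0124) and in ABE than in WT (0.26 ± 0.045). Myh3 was higher in ABE than in WT (0.64 ± 0.12) and than in saline (0.47 ± 0.12, adjusted p = 0.00587), while saline against WT did not pass for it (0.17 ± 0.12, adjusted p = 0.317). Without the filter the call of Myl1 in ABE against saline was lost (adjusted p = 0.0606). The pseudocount of 0.5 exceeds most of these levels and understates their fold changes.

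The 3 comparisons share groups, so their values are not independent of each other. The question of fiber type needs the proportions among the heavy chains, since an isoform that merely follows the amount of muscle keeps its share. The summed heavy chains had medians of 185 scaled TPM in WT, 356 in saline and 1119 in ABE, ranging from 38.5 to 551 in WT and from 197.6 to 1995 in ABE. Each heavy chain was then taken as a percent of this sum, which no scaling factor touches. Percentages of different genes depend on the gene lengths listed with the TPM, which can exceed the coding transcript. The listed length was 8616 bases against 6135 for Myh7, 11772 against 6149 for Myh8 and 6016 against 6016 for Myh4. Among light chains it was 1950 against 729 for Myl2, 2044 against 937 for Myl3 and 1062 against 766 for Mylpf. Shares were compared by exact permutation of the group labels within each sex, two-sided, with adjustment over the 18 tests of heavy chains or the 12 of light chains.

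The fast heavy chains made up nearly all of the sum in every library, from 94.7% to 99.98%. Myh4 held 65.2% ± 8.4 of it in WT (mean and SD, n = 12), 58.2% ± 14.3 in saline and 56.0% ± 8.5 in ABE. Myh1 held 26.3% ± 6.7 in WT, 34.3% ± 10.9 in saline and 33.3% ± 7.0 in ABE. Myh2 held 7.402% ± 3.33, 7.22% ± 4.80 and 9.57% ± 3.56. None of these 3 shares differed between groups after adjustment: the smallest adjusted p was 0.0617, for Myh4 in ABE against WT, where the difference was -9.15 percentage points, and that of Myh1 was 6.97 points (adjusted p = 0.0634). Leaving out WT replicate 1 or 5 or ABE replicate 5 brought both past the threshold, and leaving out ABE replicate 12 did so for Myh4, down to adjusted p-values of 0.0161 for Myh4 and 0.0171 for Myh1. Without saline replicate 5, in which Myh4 held 88.3%, the share of Myh1 in saline against WT passed at 10.3 percentage points (adjusted p = 0.0149).

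**Figure D2:**
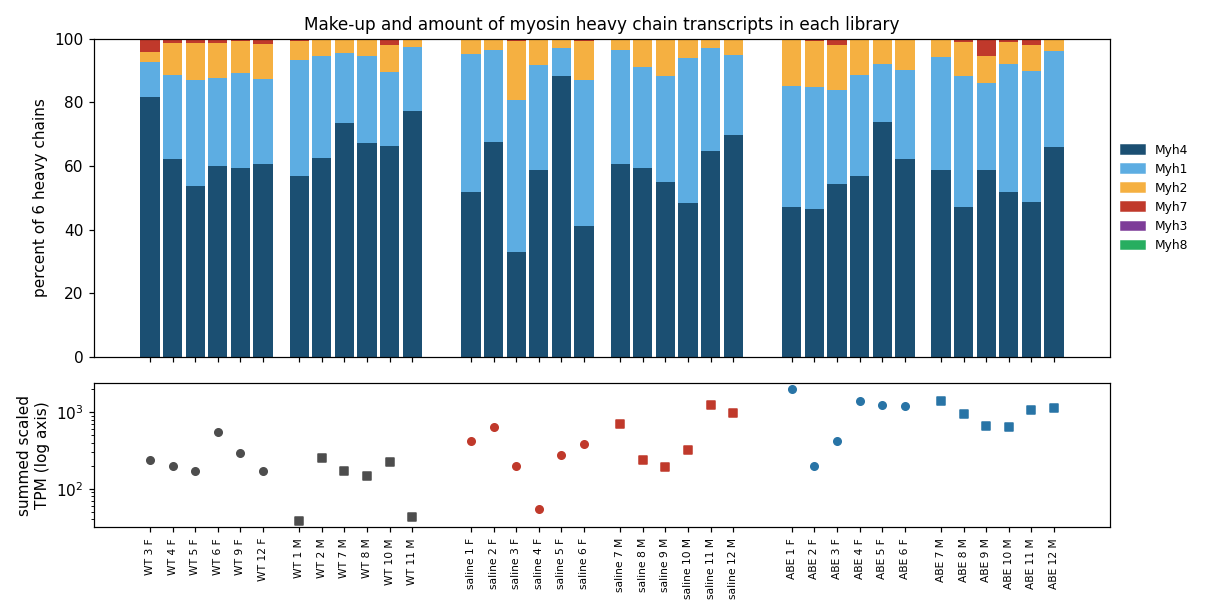
The upper panel stacks the 6 heavy chains of each library as percent of their sum, and the lower panel gives that sum in scaled TPM on a log axis, with circles for females (F) and squares for males (M). Myh4 is the main isoform in nearly all libraries whatever the sum, and the slow Myh7 is visible at the top of few bars, most in ABE replicate 9 at 5.28%.

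The share of Myh7 was lower in saline than in WT. It lay between 0.0121% and 4.04% in WT (median 0.966%), between 0.00391% and 0.603% in saline (median 0.103%) and between 0.0666% and 5.28% in ABE (median 0.433%). None of the saline libraries exceeded the WT median, and 10 ABE libraries exceeded the saline median. The mean fell from 1.07% to 0.172%, a difference of -0.902 percentage points (p = 4.73e-04, adjusted p = 0.00630). It passed without any 1 library, but on the scale of log odds, where the lowest values weigh more, it did not (adjusted p = 0.0697).

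In ABE the mean share of Myh7 was 1.07%, which is 0.899 percentage points above saline (p = 0.00826, adjusted p = 0.0496) and -0.00389 points from WT (adjusted p = 0.995). By sex, ABE differed from WT by -1.11 points in females and 1.10 in males (exact permutation, adjusted p = 0.214 and 0.409). Of the ABE libraries 5 lay above the WT median. The call against saline sits at the threshold: it was lost without any 1 of 16 libraries, which were the 12 saline libraries and ABE replicates 3, 8, 9 and 11. Without ABE replicate 9, which had 5.28%, the difference was 0.516 points (adjusted p = 0.0666). Without the 3 libraries with WT in their titles the difference was 0.875 points with an adjusted p of 0.115.

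The developmental shares stayed minute. Myh8 held 0.00818% ± 0.0047 in WT, 0.0198% ± 0.0137 in saline and 0.0120% ± 0.0035 in ABE, and its share was higher in saline than in WT (p = 7.00e-04, adjusted p = 0.00630). Within the sexes the difference was 0.0202 percentage points in females (exact permutation, adjusted p = 0.0130) and 0.00301 in males (adjusted p = 0.425). All 12 saline libraries exceeded the WT median of this share, and 4 exceeded every WT library. Of the stretches of Myh8 as long as a read, 0.483% occurred exactly in another member. The part of reads from more abundant heavy chains in the Myh8 share was not tested. Myh3 held 0.0291%, 0.0437% and 0.0473% on average and did not differ in any comparison after adjustment.

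Among light chains the slow pair was likewise lower in saline. Myl3 held 1.55% ± 1.24 of the 4 light chains in WT, 0.240% ± 0.165 in saline and 1.10% ± 1.45 in ABE. Its share fell by 1.31 percentage points from WT to saline (p = 9.60e-05, adjusted p = 6.89e-04) and was 0.859 points higher in ABE than in saline (adjusted p = 0.0237). The latter was 0.489 points without ABE replicate 9, and on log odds it did not pass (adjusted p = 0.0561). Myl2 held 1.84% ± 1.37, 0.632% ± 0.580 and 1.503% ± 1.37, and its share fell by 1.21 points from WT to saline (adjusted p = 0.00980), while ABE against saline did not pass (adjusted p = 0.0797). By sex, saline against WT was -2.13 points in females and -0.286 in males for Myl2, and -1.98 and -0.639 for Myl3, and passed in females only (exact permutation, adjusted p = 0.0130 for both, against 0.588 and 0.152 in males); whether the sexes differed in these shares was not tested. The fast Mylpf moved the other way and held 57.7% ± 2.2 in WT, 62.0% ± 2.5 in saline and 58.5% ± 3.6 in ABE. Its share rose by 4.34 points from WT to saline (adjusted p = 6.89e-04), with all 12 saline libraries above the WT median, and ABE was lower than saline by -3.55 points (adjusted p = 0.0199). Myl1 held 38.9%, 37.1% and 38.9% and passed in no comparison.

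None of the 4 light chain shares passed in ABE against WT over both sexes. In females alone the difference was -1.60 points for Myl2 and -1.61 for Myl3 (exact permutation, adjusted p = 0.0390 for both). In males alone it was 0.917 and 0.711 points and did not pass (adjusted p = 0.439 and 0.588). The 3 calls of saline against WT passed without any 1 library and without the 3 libraries with WT in their titles. Neither call of ABE against saline passed without those 3 (adjusted p of 0.0749 for Mylpf and 0.0614 for Myl3), and the call of Myl3 was also lost without saline replicate 1, 2, 5, 10 or 12 (adjusted p up to 0.0601).

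**Figure D3:**
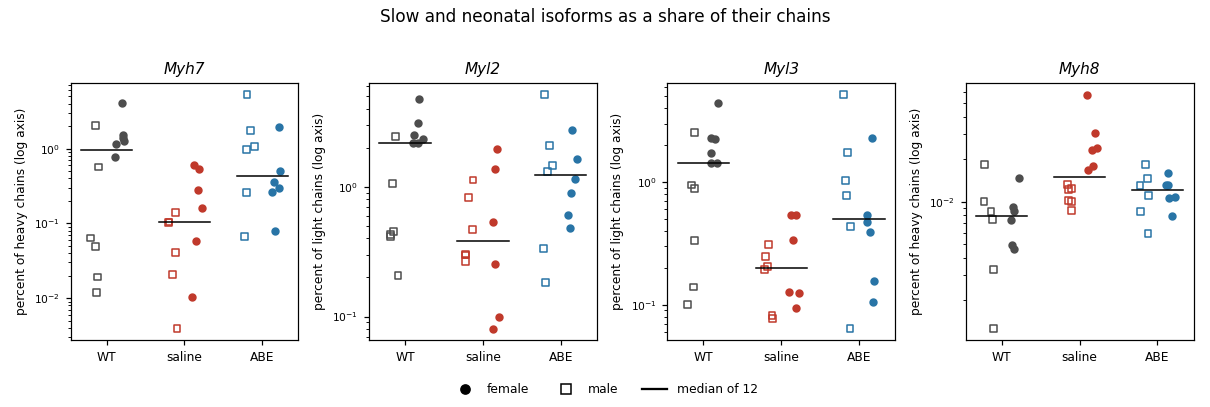
Shares of Myh7 and Myh8 among the 6 heavy chains and of Myl2 and Myl3 among the 4 light chains, in percent on log axes, for each library (filled circles females, open squares males, bar at the median of 12). WT females lie together near the top for the 3 slow chains, with Myh7 at 0.773% to 4.04%, while WT males spread down to 0.0121%.

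Within the WT group the slow chains spread by sex, a difference that was not tested. The Myh7 share lay between 0.773% and 4.04% in WT females (median 1.32%) but between 0.0121% and 2.05% in WT males (median 0.0565%). In saline females it lay between 0.0103% and 0.603% and in saline males between 0.00391% and 0.139%. In females alone every saline library was below every WT library, and the mean share fell by 1.41 percentage points (exact permutation p = 0.00216, adjusted p = 0.0130). In males alone the difference was -0.392 points (exact permutation p = 0.387). In ABE it lay between 0.0798% and 1.94% in females and between 0.0666% and 5.28% in males.

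The fits within each sex gave different members. In males saline against WT had 6 members higher, beside 54.6% of all genes called: Mylpf with a log2 fold change of 2.83, Myl1 with 2.49, Myh1 with 2.38, Myh2 with 2.07, Myh4 with 1.88 and Myl2 with 1.31. In females 3 members passed, beside 21.0% of all genes, and all 3 were slow chains that were lower: Myh7 at -1.93 (adjusted p = 0.0108), Myl3 at -1.77 (adjusted p = 0.00455) and Myl2 at -1.57 (adjusted p = 0.0342). Whether the responses differed was tested by the interaction of group and sex. In saline against WT the log2 response of Myl2 was lower in females than in males, with an interaction of -2.88 ± 0.74 (adjusted p = 0.0475), beside 1.58% of all genes called. The other 7 members had interactions from -2.42 to -1.95 that did not pass. The call of Myl2 was lost with a pseudocount of 1 (adjusted p = 0.0570), on TPM as deposited (adjusted p = 0.531) and with the muscle covariate described below (adjusted p = 0.171).

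In ABE against WT the interaction was -3.41 ± 0.89 for Myh7 (adjusted p = 0.0296) and -2.82 ± 0.75 for Myl3 (adjusted p = 0.0327), beside 3.75% of all genes called. Males rose in Myh7 by a log2 fold change of 3.22, and females had -0.19. All 8 members passed in males, beside 65.7% of all genes, and 4 in females (Myh1, Myh2, Myl1 and Mylpf), beside 54.3%. On limma-voom, without the pseudocount, the interactions were -6.29 for Myh7 and -4.44 for Myl3, and -4.86 for Myl2 in saline against WT. In ABE against saline no member passed, beside 0.0558% of all genes called by limma, and none of the 8 had an unadjusted p under 0.05. The calls of the 3 interactions sit near the threshold. All were lost without the 3 libraries with WT in their titles (limma, adjusted p from 0.0632 to 0.0765). The values there were -2.85 for Myl2, -2.90 for Myh7 and -2.34 for Myl3. Of all 16123 genes that setting called 0 in saline against WT and 707 in ABE against WT. Without any 1 library the values lay between -3.24 and -2.66 for Myl2, -3.93 and -2.98 for Myh7, and -3.28 and -2.42 for Myl3. The call of Myl2 was also lost without any 1 of 16 of its 24 libraries (adjusted p up to 0.111): WT replicates 1, 2, 6 to 9, 11 and 12, and saline replicates 1, 4 to 7, 9, 11 and 12. That of Myh7 was lost without WT replicate 6, 7, 8 or 11 or ABE replicate 4, 8 or 9 (adjusted p up to 0.0628), and that of Myl3 without WT replicate 1, 3, 6, 7, 8 or 11 or ABE replicate 8, 9 or 12 (adjusted p up to 0.0716).

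The amount of muscle was followed by a list of 12 genes that all striated fibers use, such as Acta1, which encodes skeletal alpha-actin. Of its 12 genes 11 were higher in saline than in WT, with a median log2 fold change of 1.32 against 0.015 over all genes. All 12 were higher in ABE than in WT (median 2.48) and than in saline (median 1.20). Their summed level lay between 99.7 and 1527 scaled TPM in WT, between 174 and 3824 in saline and between 574 and 7124 in ABE. Over the 36 libraries the mean of this list correlated with Myl1 at r = 0.99, Mylpf at 0.98, Myh4 and Myh1 at 0.96 and Myh2 at 0.90, but with Myl2 at 0.66, Myl3 at 0.49 and Myh7 at 0.47. These values describe libraries that share a tissue and a protocol and have no test.

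With the mean of this list as a covariate, saline against WT had 3 members lower, beside 44.5% of all genes called. Myh4 was at -0.57 ± 0.16 (adjusted p = 0.00513), Myh7 at -1.57 ± 0.56 (adjusted p = 0.0234) and Myl3 at -1.33 ± 0.47 (adjusted p = 0.0199). Mylpf, Myl1 and Myh1, which were called without the covariate, were at 0.23, 0.08 and 0.02 and did not pass. In ABE against WT only Myh4 passed, at -0.64 ± 0.21 (adjusted p = 0.0238), beside 27.7% of all genes. In ABE against saline, where 7.16% of all genes were called, Myh7 was higher at 1.88 ± 0.56 (adjusted p = 0.0373) and Mylpf lower at -0.38 ± 0.12 (adjusted p = 0.0467). Myh2, Myl2 and Myl3 were at 0.72, 1.08 and 1.22 and did not pass (adjusted p from 0.0941 to 0.113).

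**Figure D4:**
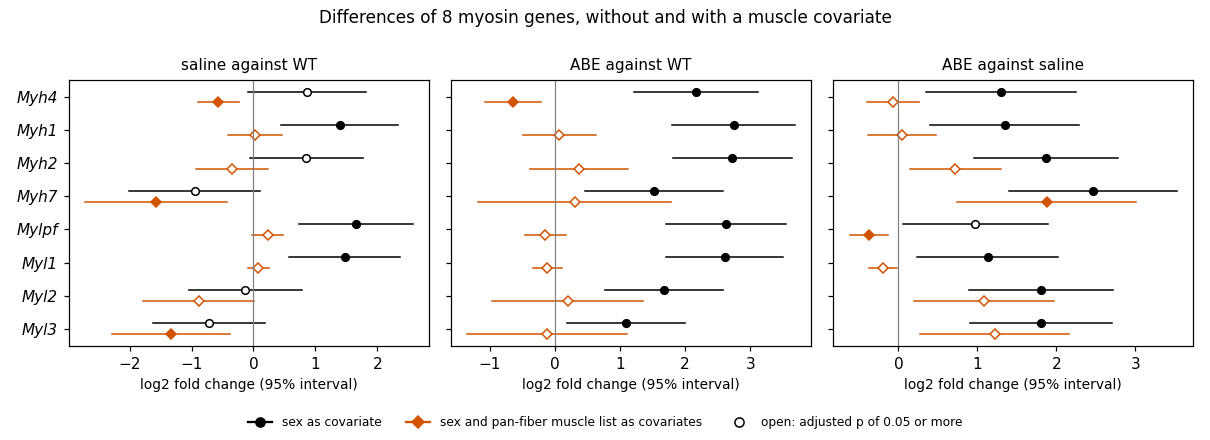
Log2 fold changes of the 8 tested members with their 95% intervals in the 3 comparisons, from fits with sex as covariate (black circles) and with sex and the mean of the muscle list (orange diamonds), open where the adjusted p was 0.05 or more. With the covariate Mylpf goes from 1.65 to 0.23 in saline against WT and Myh4 from 0.87 to -0.57. Myh7 goes from -0.95 to -1.57 in saline against WT and from 2.47 to 1.88 in ABE against saline.

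Among themselves most members fell into a fast and a slow set. Myh4, Myh1, Mylpf and Myl1 correlated pairwise at r = 0.88 to 0.99 over the 36 libraries, and Myh2 with them at 0.80 to 0.91. Myh2 was nearly as close to the slow Myl2 (0.79, or 0.82 without the pseudocount) as to Myh4 (0.80), but less so to Myh7 (0.57) and Myl3 (0.56). Myh7 correlated with Myl3 at 0.96 and with Myl2 at 0.88, but with Myh4 at 0.44 and with Mylpf at 0.36. Myh3 and Myh8 correlated at 0.84 with each other and at 0.28 and 0.21 with Myh7. Without the pseudocount, which flattens genes near or below 0.5 scaled TPM, the latter were 0.57 and 0.42, and Myh7 with Myh4 and Mylpf was at 0.48 and 0.43.

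**Figure D5:**
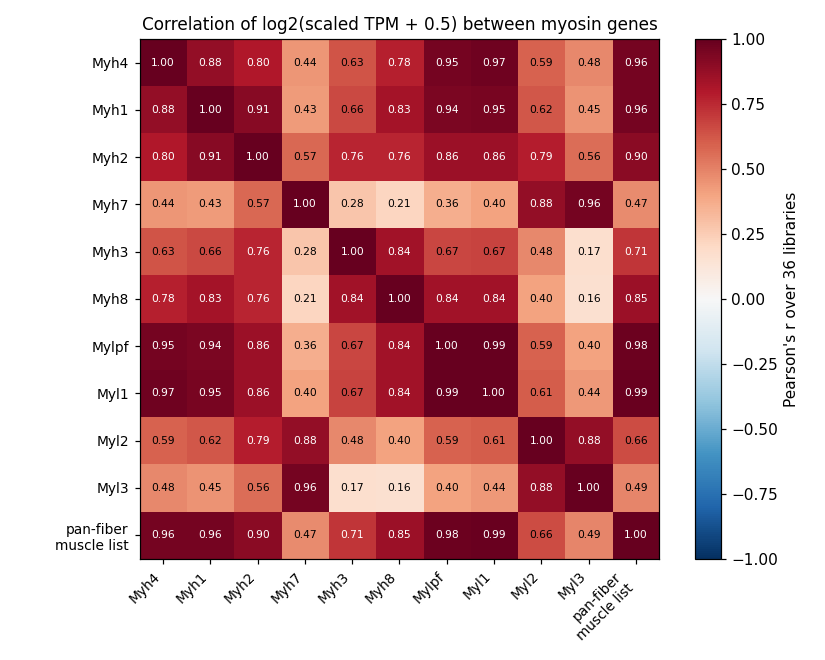
Pearson's r of log2(scaled TPM + 0.5) between each pair of members and with the mean of the muscle list, over 36 libraries of 3 groups, from blue at -1 to red at 1. The fast chains are dark red with each other and with the list, and Myh7, Myl2 and Myl3 form a block at 0.88 to 0.96 with paler values towards the rest.

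The genes most like each heavy chain, among 3934 others with a mean of at least 5 scaled TPM, were sought by the same r. For Myh4 they were Ckm, the muscle creatine kinase (r = 0.99), Pygm, the muscle glycogen phosphorylase (0.99), Pvalb, the calcium buffer parvalbumin of fast fibers (0.98), Ampd1 (0.98) and Mybpc2, the fast myosin binding protein C (0.98). For Myh1 they were Mybpc1, Tpm2, Actn2, Mb and Hspb6 (0.97 to 0.98), and for Myh2 they were Mb, which encodes myoglobin, Ldhb, Coq8a, Coro6 and Lmcd1 (0.94 to 0.96). Myh7 had a looser set in this search, led by Atp2a2, the slow calcium pump of the sarcoplasmic reticulum (0.86), and then Pkd1, Phldb1, Malat1 and Ltbp4 (0.71 to 0.76). Members were not eligible, and Myl3 (0.96) and Myl2 (0.88) were closer to Myh7 than any of these. Genes with a mean below 5 scaled TPM were not eligible either. For Myh3 the nearest on this scale, which flattens its low values, were Cbfb, Srpr, Arl6ip5, Cyb5b and Herpud1 (0.80 to 0.84).

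Other genes of fast fibers followed. Of 14 on the fast list, 12 were higher in saline than in WT and none lower (median log2 fold change 1.16), 14 were higher in ABE than in WT (median 2.51) and 12 were higher in ABE than in saline (median 1.32). The most abundant were Atp2a1, the fast calcium pump, Pvalb and Tnnt3, the fast troponin T, at 1.19, 1.09 and 1.33 in saline against WT. Of 12 genes on the slow list 11 were tested. In saline against WT 2 were higher and none lower (median 0.19). The 2 that rose were Fhl1 at 1.15 and Ankrd2 at 1.28, which encode stretch-responsive muscle proteins, while Mb was at 0.80 and Atp2a2 at -0.13 and did not pass. In ABE against WT 10 were higher and 1 lower (median 1.80), and in ABE against saline 10 were higher (median 1.55). With the muscle covariate 3 slow genes were lower in saline than in WT and 6 were higher in ABE than in saline, while of the fast genes 7 were lower and 1 higher in saline than in WT and 2 were lower in ABE than in saline. Of all 16123 genes this fit called 3782 higher and 3393 lower in saline against WT. In ABE against saline it called 800 higher and 355 lower.

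Of 14 developmental and regeneration genes only 5 were tested. In saline against WT 4 rose, among them Actc1, the cardiac and developmental actin, at 1.73 ± 0.39 (adjusted p = 4.43e-04), Ncam1 at 0.90 ± 0.07 and Myf6, a myogenic transcription factor, at 1.44 ± 0.32. All 5 were higher in ABE than in WT and 3 in ABE than in saline. Of 14 other genes of striated myosins and their partners 7 were tested: 3 were higher in saline than in WT, 7 in ABE than in WT and 5 in ABE than in saline, with none lower. The most abundant were Mybpc2, Mybpc1 and Mylk2, of which Mybpc2 and Mylk2 are also on the fast list. Of 9 smooth muscle and non-muscle myosins 2 were higher and 1 lower in saline than in WT (median 0.02), and their summed level had medians of 77.5 scaled TPM in WT, 76.1 in saline and 68.8 in ABE.

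Markers of other cells moved beside the myosins. Of all genes, 27.5% were higher and 24.9% lower in saline against WT, 34.6% and 35.6% in ABE against WT, and 22.9% and 25.2% in ABE against saline. Tendon markers, which muscle attachments would carry, numbered 5 tested of 7: 2 were higher in saline than in WT, 5 in ABE than in WT and 4 in ABE than in saline, and their summed level lay between 6.44 and 40.5 scaled TPM in WT, between 4.21 and 33.6 in saline and between 13.9 and 67.7 in ABE. Osteocyte markers were higher in saline than in WT for 7 of 7 tested and in ABE than in WT for 7, with summed levels between 17.0 and 59.8 scaled TPM in WT and between 183 and 513 in saline. Of 7 osteoblast markers 3 were higher in saline than in WT, and 4 of 5 chondrocyte markers were lower. ABE against WT gave the same counts for both lists. Neutrophil markers were lower in ABE than in saline for 6 of 7, erythroid for 5 of 5 and adipocyte for 4 of 4, and 4 of 5 B cell markers were lower in saline than in WT. Of the neutrophil markers 2 were higher in saline than in WT and 2 lower in ABE than in WT. In ABE against WT 4 of 5 B cell and 4 of 5 erythroid markers were lower. Of 5 smooth muscle cell markers 4 were higher in ABE than in saline, among them Des, which is also on the muscle list. Of 4 nerve and Schwann cell markers 1 was higher in ABE than in saline, 1 was lower in saline than in WT and 1 was lower in ABE than in WT. Of satellite cell markers 1 of 5 was tested. The part of these cells in the myosin results was not tested, apart from the blood cell covariates above. None of the 7 heart muscle markers passed the filter, with a summed level between 0.184 and 1.78 scaled TPM over all libraries, so the levels of Myh7, Myl2 and Myl3 stood beside heart markers near 0.

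Neighbouring sequence bears on how well the members are told apart. The coding sequences of Myh1 and Myh2 were identical at 91.1% of bases and those of Myh4 and Myh1 at 90.2%, while Myh7 shared 76.7% to 77.8% with the others. Of stretches as long as a read, 2.47% of those in Myh1, 2.05% in Myh2, 0.483% in Myh8 and 0.460% in Myh4 occurred exactly in another member, and none of those in Myh7, Myh3 or the light chains did. Genes on the opposite strand overlap Myh1 (Myhas), Myh2 (9430073C21Rik), Myh7 (Mhrt, Gm29015, Gm17428 and Gm31251), Myl2 (Ccdc63) and Myl3 (Pth1r, a bone gene with a mean of 9.75 TPM). The library kit keeps strand, but the strand setting of the counting is not given in the sources used here, so reads of these pairs may not be separated.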

How the data were processed

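The authors aligned stranded poly(A) reads of 36 tibiae to GRCm38 with STAR (version 2.73a in the submitters' processing notes), counted GENCODE genes with QoRTs and deposited TPM per gene. The deposited table also lists gene length and a GC fraction, which no test used. How TPM were computed is not given in the sources used here. Per library, TPM were divided by the median ratio over the 23632 genes above 0 in every library. limma 3.58.1 (R 4.3.3) fitted group and sex to log2(scaled TPM + 0.5) over all 36 libraries for the 16123 genes whose mean reached 0.5 TPM, with Benjamini-Hochberg adjustment over all genes at 0.05. Whole reads could be recovered from TPM and gene length less an offset of 218 bases (100% of values within 0.05) and gave depth and a limma-voom alternative. Shares were tested by exact permutation within sex (853776 labelings, or 924 for 1 sex), two-sided. The scripts were checked on simulated data. Named genes were all 10 members, the 5 genes most correlated with each of 5 heavy chains, and up to 3 of the most abundant genes of each list; Ankrd2 and Fhl1 were added as the 2 slow genes called after their values were seen. The members and gene lists were chosen with earlier results of these data known, so counts over a list are descriptions. Promoters came from RefSeq (10 of 10 members matched), positions from GENCODE on GRCm38. Figures were drawn with matplotlib 3.10.9.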

Additional observations from a re-analysis of the deposited data

Results flagged for a closer look

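A test of the difference between the sexes singled out 3 results, coded as the female minus the male log2 response. For Myl2 in saline against WT it was -2.88, for Myh7 in ABE against WT -3.41 and for Myl3 in ABE against WT -2.82. Within WT, the Myh7 level had a median of 0.118 scaled TPM in males, with a highest library at 4.61, against 2.66 in females, and the Myl2 level 0.267 against 3.49. None of the 3 passed without the 3 libraries with WT in their titles.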

How the results depend on the processing

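No paired analysis was possible because the labels give no replicate numbers that pair mice across groups. TPM as deposited moved the median log2 fold change of all genes to -0.13 in saline against WT, -0.42 in ABE against WT and -0.27 in ABE against saline, so that calls split into 1035 higher and 3726 lower, 1468 and 9462, and 540 and 6580, against 4440 and 4017, 5576 and 5734, and 3698 and 4055 with rescaling. With TPM rescaled to longer genes the median moved to -0.15 in saline against WT (1803 higher, 7027 lower) and -0.18 in ABE against WT (3633 higher, 7895 lower). The direction of the members was the same under both, except where named here. The cause of the changes below was not tested, apart from settings that test fewer genes or use fewer samples.

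In saline against WT, 3 members were called; 6 were in males and 5 with array weights. All genes called numbered 8457, and were 13258 with no filter, 2114 with a filter at 5 TPM, 4761 on TPM as deposited, 3379 in females and 5358 with blood cell covariates, with 8803 in males and 10355 with array weights. In ABE against WT, 8 members were called, and 5 with the filter at 5 TPM (which leaves 5), 4 in females, 1 with the muscle covariate and 5 with blood cell covariates; genes numbered 11310, and 19277 with no filter, 2689 at 5 TPM and 4464 with the muscle covariate, with 8752 in females and 8415 with blood cell covariates. In ABE against saline, 7 members were called, and 4 at 5 TPM, 4 on TPM as deposited, 3 in males, 4 in females, 2 with the muscle covariate and 1 with blood cell covariates; genes numbered 7753, and 1837 at 5 TPM, 3290 in males, 4857 in females, 1155 with the muscle covariate and 1298 with blood cell covariates.

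Log2 fold changes changed sign as follows. In saline against WT, Myh4 was -0.14 in females and -0.57 with the muscle covariate, Myh2 -0.36 and -0.35, Myh7 0.026 in males, Myl2 1.31 in males and 0.061 with array weights, and Myl3 0.34 in males. In ABE against WT, Myh7 was -0.19 and Myl3 -0.32 in females, and with the muscle covariate Myh4 was -0.64, Myl1 -0.11, Mylpf -0.15 and Myl3 -0.12. In ABE against saline, with that covariate, Myh4 was -0.069, Myl1 -0.19 and Mylpf -0.38. For the difference between the sexes, Myh4 in ABE against WT was 0.0054 with the muscle covariate, and in ABE against saline Myh1 was -0.095 on TPM as deposited and -0.12 with the covariate and Myl2 -0.068 on TPM as deposited.

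Of heavy chain shares in saline against WT, 2 differed, and 1 did on log odds and 0 in males. In ABE against saline 1 did, that of Myh7, and 0 in males and 0 without the 3 libraries with WT in their titles. In females the share that differed was another, that of Myh8, lower in ABE (-0.0165 points, exact permutation, adjusted p = 0.0130). The Myh7 share did not pass there (0.301 points, adjusted p = 0.617). Of light chain shares in saline against WT 3 differed and 0 did in males; in ABE against WT 0 differed and 2 did in females, with Myl2 and Myl3 lower; in ABE against saline 2 differed, and 1 on log odds, 0 in males, 0 in females and 0 without those 3 libraries. Of the 3 members with a sex difference 0 passed without them. Shares changed sign, in percentage points, for Myh2 (0.966, males) and Myl1 (1.43, females) in saline against WT, for Myh7 (1.10 in males, and 0.46 on log2 odds), Myl1 (-2.51, males), Myl2 (0.917, males) and Myl3 (0.711, males) in ABE against WT, and in ABE against saline for Myh4 (0.0795, females), Myh1 (1.95, males), Myh3 (-0.00238 in males and -0.00495 without the 3 libraries) and Myh8 (0.000821, males).

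Leaving out 1 library at a time gave 3 to 5 members in saline against WT, 7 to 8 in ABE against WT and 5 to 8 in ABE against saline, and 0 to 4 members with a sex difference. Heavy chain shares that differed numbered 2 to 3, 0 to 2 and 0 to 2, and light chain shares 3, 0 and 1 to 3. Values that crossed 0 were the Myl2 fold change in saline against WT (-0.28 to 0.034) and the shares of Myh2 in saline against WT (-1.19 to 0.232), Myh7 (-0.386 to 0.266) and Myl1 (-0.428 to 0.640) in ABE against WT, and Myh1 (-3.36 to 0.308), Myh4 (-4.48 to 0.552) and Myh3 (-0.00636 to 0.0179) in ABE against saline.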
